A study of Mus musculus with 7 samples.

Results

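GDF9 and BMP15 are the growth factors by which an oocyte speaks to its follicle, and their genes, 3 further bone morphogenetic protein (BMP) ligand genes and 5 receptor genes of the TGF-beta family are described here in mini-oocytes. Mini-oocytes are oocyte-like cells made from mouse embryonic stem cells (mESCs) in 2-dimensional culture. The members were chosen by gene symbol: Gdf9, Bmp15, Bmp4, Bmp5, Bmp6, Bmpr1a, Bmpr1b, Tgfbr1, Acvr1 and Bmpr2, which are 10 of 55364 genes in the tables. The 7 RNA-seq libraries form 3 groups. 4F-mini-oocytes were made with Nobox, Figla, Tbpl2 and Lhx8 and were sampled at day 7 (n = 2) and at day 21 (n = 3). 8F-mini-oocytes were made with these 4 and with Stat3, Dynll1, Sub1 and Sohlh1, and were sampled at day 21 (n = 2). No 8F sample of day 7 was among the 7 libraries. All cells derive from the BVSC H18 female mESC line, and the 8F cells also carry an Npm2-mCherry reporter. In all groups the factors were fused to a destabilization domain and stabilised by Shield-1, which was left out of the medium from day 12. The medium held fetal bovine serum, SCF and Y-27632, and no follicular somatic cells were added. A day 7 sample pooled 1000 cells and a day 21 sample pooled 10. Day 7 fell before Shield-1 was left out, and day 21 after it. The day, the size of the pool and the supply of Shield-1 therefore change together and cannot be told apart. The labels do not say whether replicates came from separate cultures, so the p-values measure only the spread between these samples.

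Ligands of the TGF-beta family are secreted as dimers that bring type II and type I receptor kinases together on the receiving cell. The type I receptor then phosphorylates SMAD proteins: BMP receptors act on SMAD1, SMAD5 and SMAD9, and TGF-beta and activin receptors act on SMAD2 and SMAD3, all with the shared partner SMAD4. In the ovary, GDF9 and BMP15 leave the growing oocyte and act on granulosa and cumulus cells through BMPR2 with TGFBR1 or BMPR1B, and mice without Gdf9 stop follicle growth early. The values below are therefore those of the cell that makes these ligands, cultured without follicular somatic cells. Whether it also receives them was not tested.

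The libraries held between 9506179 and 18027917 reads on genes, as recovered from the deposited TPM (an abundance for which reads are divided by exon length and then brought to one total for all libraries). The 10 oocyte markers checked were Zp1, Zp2, Zp3, Nobox, Figla, Npm2, Nlrp5, Zar1, Ddx4 and Dazl. Nobox and Figla are also factors induced in every group, so their detection was given by the design. Each of the 10 was detected in all 7 libraries. Their summed levels were 6619 and 8044 TPM at day 7, 25499 to 27466 TPM in 4F at day 21 and 18641 and 19177 TPM in 8F. By the limma test 5 of the 10 were lower in 8F than in 4F at day 21 and 0 higher. Dazl was 11.9 and 4.77 TPM in 8F and 47.5 to 103 TPM in 4F at day 21. The 8 granulosa cell markers summed to between 2.53 and 12.6 TPM. Kitl, the gene of the KIT ligand, made up most of the day 7 sum at 11.04 and 7.03 TPM and was 1.94 to 4.87 TPM at day 21, while Inha was at 0 in all 7 libraries, Amhr2 and Wt1 stayed under 1 TPM, Foxl2 did not exceed 2.69 TPM and Fshr did not exceed 2.53 TPM. The 5 cumulus cell markers summed to between 0.0521 and 5.03 TPM, the 5 mesenchymal markers to at most 5.31 TPM and the 4 endoderm markers to at most 2.08 TPM. Trophoblast markers moved with the day, since their sum was 1113 and 1543 TPM at day 7 and between 36.8 and 148 TPM in the 5 libraries of day 21. At day 7 nearly all of it was Krt8 and Krt18, keratins of simple epithelia. At day 21 Tfap2c, at 10.9 to 14.6 TPM, was a larger part of the sum, and Cdx2 did not exceed 0.509 TPM in any library. The sum of the 6 pluripotency markers was 61.1 and 81.9 TPM at day 7, 224 to 343 TPM in 4F at day 21 and 123 and 164 TPM in 8F, and its largest part at day 21 was Pou5f1. Pou5f1 rose in 4F with the day by 2.77 on the log2 scale (limma, adjusted p = 0.000479) and Esrrb by 2.20 (0.00861), Zfp42 fell by 1.43 (0.00625), and Nanog was at 0 in the day 21 libraries. The 10 highest genes took 28.5% and 31.8% of the TPM at day 7 and between 10.2% and 14.0% at day 21. The part of these shifts in the results below was not tested.

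Bmp15 (X:6314107-6320721 on the minus strand, mm10) is the ligand whose upstream sequence is shown first, because it was the only one of the 10 genes higher in 8F than in 4F by the test. Below it stand the window of Bmp6, which was at like levels in 4F and 8F, and the most upstream Bmpr1b window of 3. Each is the 250 bases before a RefSeq transcription start (GRCm38.p6, which is mm10), 5′ to 3′ on the strand of the gene, with matches in capitals to TAATTG or TAATTA (letters bound by NOBOX), TGATTG (a LIM-homeodomain motif of the LHX8 kind) and CANNTG (the E-box that FIGLA binds). Both strands were searched, and no match overlaps another. Of the 10 genes, 9 had at least 1 such window, 12 in all, and Gdf9 had no entry. The annotated Bmp6 and Bmpr1b genes themselves begin further upstream than the windows shown.
Bmp15, X:6320725-6320974, minus strand: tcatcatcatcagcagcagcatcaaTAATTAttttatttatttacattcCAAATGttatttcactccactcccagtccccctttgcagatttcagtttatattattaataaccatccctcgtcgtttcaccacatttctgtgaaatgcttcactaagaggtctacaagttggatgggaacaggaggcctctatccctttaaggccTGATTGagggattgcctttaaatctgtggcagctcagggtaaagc
Bmp6, 13:38345466-38345715, plus strand: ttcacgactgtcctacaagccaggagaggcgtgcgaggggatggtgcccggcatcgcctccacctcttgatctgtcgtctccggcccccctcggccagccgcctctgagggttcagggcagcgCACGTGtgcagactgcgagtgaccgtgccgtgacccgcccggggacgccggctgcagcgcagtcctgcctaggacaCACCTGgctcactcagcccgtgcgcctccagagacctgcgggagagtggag
Bmpr1b, 3:141982265-141982514, minus strand: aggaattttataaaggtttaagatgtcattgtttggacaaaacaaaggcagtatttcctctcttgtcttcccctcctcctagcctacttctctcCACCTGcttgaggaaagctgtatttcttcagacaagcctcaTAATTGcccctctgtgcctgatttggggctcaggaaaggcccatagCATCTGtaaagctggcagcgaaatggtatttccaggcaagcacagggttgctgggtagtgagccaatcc

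The Bmp15 window held TAATTA at -225 to -220, the E-box CAAATG at -201 to -196 and TGATTG at -45 to -40, counted from the start site. The Bmpr1b window held TAATTG at -115 to -110 and 2 E-boxes, and the Bmp6 window held the E-boxes CACGTG and CACCTG. Among all 32851 windows of this length, 4.84% held TAATTA, 7.17% TAATTG, 12.7% TGATTG and 66.2% an E-box. Bmp15 was the only one of the 9 genes with TAATTA or TGATTG, and Bmpr1b the only one with TAATTG. GC content was 40.4% in the Bmp15 window and 68.8% in the Bmp6 window, against a median of 52.4% over all windows. A match is a run of letters and no measurement of binding.

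Gdf9 was the most abundant of the 10 genes in every library. Its level was 196 and 303 TPM at day 7, 4975, 3952 and 4912 TPM in 4F at day 21, and 5206 and 5621 TPM in 8F at day 21. All 5 libraries of day 21 stood above both of day 7, and both 8F libraries stood above the 3 of 4F. By mean level it ranked 316 among all genes at day 7, 14 in 4F at day 21 and 11 in 8F. In pooled samples such as these, fewer cells with a transcript and less of it per cell cannot be told apart. Gdf9 lies at 11:53431023-53437904 on the plus strand, with 2031 exon bases.

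Bmp15, the close relative of Gdf9 and its partner in heterodimers, was 23.5 and 31.6 TPM at day 7, 291, 285 and 291 TPM in 4F at day 21, and 440 and 432 TPM in 8F. The 3 groups did not overlap and the 3 libraries of 4F at day 21 were nearly equal. Its rank went from 5177 at day 7 to 478 in 4F and 231 in 8F at day 21.

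Bmp6, a BMP that oocytes also make, was 14.2 and 19.8 TPM at day 7. At day 21 it was 210, 187 and 169 TPM in 4F and 172 and 204 TPM in 8F, so that both day 21 groups lay above day 7 and overlapped with each other. It ranked 857 in 4F and 825 in 8F at day 21. Txndc5, on the opposite strand, shares 224 of its 3900 exon bases and moved with it, at 46.4 and 40.9 TPM at day 7 and 138 to 167 TPM in the 5 libraries of day 21; its part in the Bmp6 values was not tested.

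The other 2 ligand genes were lower. Bmp5 was 0.475 and 0.619 TPM at day 7, 1.19, 5.29 and 2.81 TPM in 4F at day 21, and 8.46 and 5.10 TPM in 8F. Both day 21 groups lay above day 7, with 22.5 to 198.5 reads against 7.5 and 13, and they overlapped with each other. The antisense gene Gm26903 shares 1878 of the 4025 exon bases of Bmp5, and no strand setting is stated for the counting. In these values the reads of the 2 genes therefore cannot be told apart, and Gm26903 itself was 0.627 to 4.27 TPM. The paper reports chimeric Bmp5 transcripts driven by a transposable element in mini-oocytes. Whether the RefSeq start of Bmp5 was used in these cells was not tested. Bmp4, known in the ovary from theca and stromal cells, had 4 and 25 reads at day 7, 10, 3 and 0 reads in 4F at day 21 and 7 and 1 reads in 8F. It reached 1 TPM in 1 library and was not tested. Where it had 0 reads, the depth allows up to 0.318 TPM (3 reads, counting error only).

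**Figure D1:**
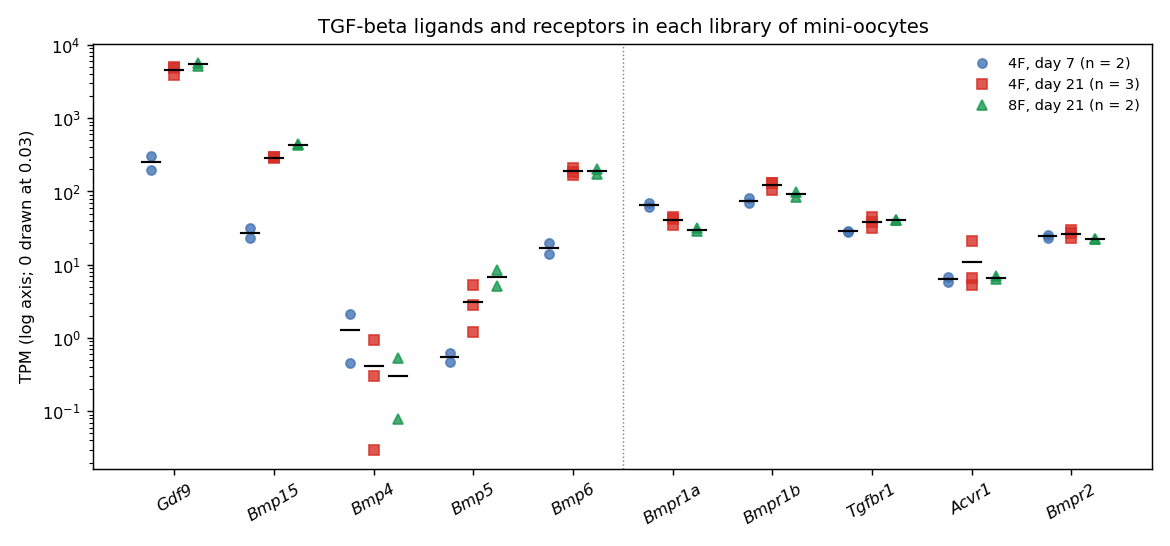
Level of each gene in TPM on a log axis, ligands left of the dotted line and receptors right of it; each point is a library and each black line a group mean. Gdf9, Bmp15 and Bmp6 sit about an order of magnitude higher in the libraries of day 21, while the 5 receptor genes stay between 5.24 and 131 TPM in every group.

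Among the type I receptors, Bmpr1a (ALK3) was lower and Bmpr1b (ALK6) higher at day 21 than at day 7 in the TPM as deposited. The rise of Bmpr1b depended on the scaling, as given below. Both genes stood lower in 8F than in 4F at day 21, without a call. Bmpr1a was 68.8 and 61.0 TPM at day 7, 42.4, 45.2 and 34.5 TPM in 4F at day 21, and 29.1 and 31.3 TPM in 8F. The 3 groups did not overlap, with day 7 highest and 8F lowest. The antisense gene Gm17110 shares 290 of its 6351 exon bases and was 24.4 and 8.08 TPM at day 7 and 3.08 to 19.4 TPM at day 21; its part in the Bmpr1a values was not tested. Bmpr1b, which binds BMP15 in granulosa cells, was 69.6 and 80.5 TPM at day 7, 131, 129 and 106 TPM in 4F at day 21, and 98.7 and 84.5 TPM in 8F. Here day 7 was lowest and 4F at day 21 highest, and again no groups overlapped.

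Tgfbr1 (ALK5), the type I receptor of GDF9, was 28.6 and 28.4 TPM at day 7, 44.9, 32.0 and 37.99 TPM in 4F at day 21, and 40.2 and 40.4 TPM in 8F. All day 21 libraries were above day 7, and 4F and 8F overlapped. Acvr1 (ALK2), another BMP type I receptor, was 6.91 and 5.79 TPM at day 7, 6.59, 5.24 and 21.3 TPM in 4F at day 21, and 6.93 and 6.41 TPM in 8F. Replicate 3 of 4F at day 21 stood apart, with 431 reads, and the other 6 libraries overlapped. Bmpr2, the type II receptor shared by GDF9, BMP15 and other BMPs, was 25.6 and 23.1 TPM at day 7, 27.3, 23.2 and 29.5 TPM in 4F at day 21, and 22.7 and 22.8 TPM in 8F. Its groups of day 7 and of 4F at day 21 overlapped, and both 8F libraries lay below them.

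Order of levels, which TPM allows because it is per exon length, changed between the days. At day 7, Gdf9 was followed by Bmpr1b and Bmpr1a, and Tgfbr1, Bmp15 and Bmpr2 overlapped as neighbours ahead of Bmp6. At day 21 the 3 ligands Gdf9, Bmp15 and Bmp6 led, in that order without overlap, in 4F and in 8F. Bmpr1b headed the receptors in both, Bmpr1a and Tgfbr1 overlapped in 4F, and Tgfbr1 lay above Bmpr1a in 8F. Bmp5 and Acvr1 overlapped in both day 21 groups, and Bmp4 was last.

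Day 21 was compared with day 7 in 4F to ask how the genes differed between the days. The model was limma on log2(TPM + 1) over the 21780 genes that reached 1 TPM in 2 or more libraries, with Benjamini-Hochberg adjustment at a false discovery rate (FDR) of 0.05; 9 of the 10 genes were tested. Of these 9, 4 rose and 1 fell. Over all genes tested, 40.6% were called, 25.3% higher and 15.3% lower, so the share called among the 9 was near that of all genes and the size of the change is what the following values describe. The groups did not overlap for 7 of the 9 genes, 6 higher and 1 lower at day 21, against 56.7% of all genes tested (33.8% higher, 22.9% lower). Gdf9 rose by 4.23 on the log2 scale (SE 0.21, adjusted p = 6.45e-05), 18.5-fold by the means of 4613 ± 573 TPM (SD, n = 3) and 249 ± 75.6 TPM (SD, n = 2). Bmp6 rose by 3.41 (SE 0.17, adjusted p = 6.57e-05), from 17.0 ± 3.93 to 189 ± 20.2 TPM. Bmp15 rose by 3.36 (SE 0.13, adjusted p = 3.79e-05), from 27.5 ± 5.74 to 289 ± 3.63 TPM. These 3 ligands passed the test in each of 17 other settings, with log2 differences from 2.84 to 4.54. The median log2 difference was 0.69 over the 9 genes and 0.17 over all genes tested.

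The receptor genes changed less. Bmpr1a fell by 0.67 on the log2 scale (SE 0.16, adjusted p = 0.0156), from 64.9 ± 5.50 to 40.7 ± 5.57 TPM. It passed the test in 15 of 17 other settings and missed it without replicate 1 of day 7 (-0.58, adjusted p = 0.078), with adjusted p between 0.00032 and 0.078 over the settings. Bmpr1b rose by 0.69 (SE 0.14, adjusted p = 0.00944), from 75.0 ± 7.71 to 122 ± 13.9 TPM, but this rise depended on the scaling. It was 0.35 after median-of-ratios rescaling (adjusted p = 0.143), 0.07 after quantile normalization (0.725) and 0.15 with limma-voom on the recovered reads (0.456), and without replicate 1 of day 7 it was 0.59 (0.061); its adjusted p ranged from 0.0069 to 0.725. Those 3 scalings moved the median of all genes from 0.17 to -0.06, 0.04 and -0.32, and the share of calls that were higher from 62.3% to 48.4%, 52.0% and 37.3%. Bmp5 differed by 1.28 (adjusted p = 0.105), or 1.66 without replicate 1 of 4F at day 21 (adjusted p = 0.043; range over the settings 0.043 to 0.27). Tgfbr1 differed by 0.40 (adjusted p = 0.105), or 0.52 without replicate 2 of 4F at day 21 (0.042; range 0.042 to 0.976), and was -0.12 with limma-voom. Bmpr2 differed by 0.12 (95% interval -0.28 to 0.52, adjusted p = 0.598), and was negative under each of the 3 scalings, where limma-voom gave -0.41 (adjusted p = 0.025; range 0.025 to 0.879). Acvr1 differed by 0.47 (interval -0.88 to 1.83), and by -0.09 without replicate 3 of 4F at day 21.

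**Figure D2:**
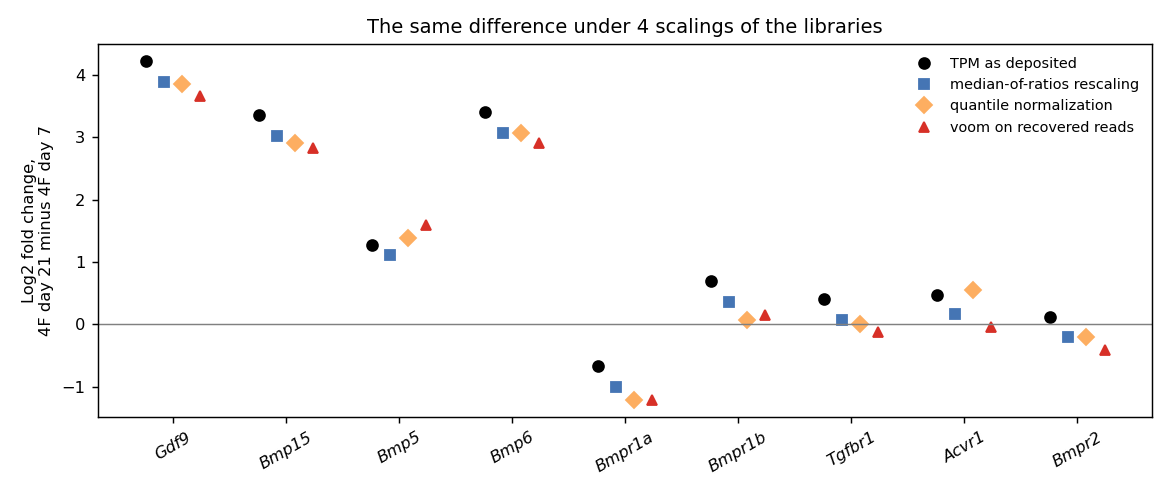
Log2 difference between 4F at day 21 and day 7 for the 9 genes tested, with the TPM as deposited and under 3 other scalings. Gdf9, Bmp15 and Bmp6 stay above 2.8 and Bmpr1a below -0.6 under each, while Bmpr1b comes close to 0 and Bmpr2 and Tgfbr1 lie on either side of 0.

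8F and 4F were compared at day 21 to ask whether the 4 added factors go with other ligand or receptor levels. Of the 9 genes tested, 1 was called, against 8.37% of all genes tested (3.95% higher, 4.41% lower). The groups did not overlap for 5 of the 9, 2 higher and 3 lower in 8F, against 43.8% of all genes. Bmp15 was higher in 8F by 0.59 on the log2 scale (SE 0.13, 95% interval 0.27 to 0.91, adjusted p = 0.046), 1.51-fold by the means of 436 ± 6.08 TPM (n = 2) and 289 ± 3.63 TPM (n = 3). The difference stayed between 0.58 and 0.75 in the 17 other settings, but the call stood close to the threshold. It was missed on leaving out any 1 of the 5 libraries compared (adjusted p 0.102 to 0.302), and over all settings its adjusted p ran from 0.00115, with limma-voom, to 0.302. Gdf9 was 0.24 higher (interval -0.27 to 0.75, adjusted p = 0.598); its groups did not overlap, as held in this direction for 24.1% of the genes tested, and limma-voom gave 0.39 (adjusted p = 0.0105; range 0.0105 to 0.906). Bmp6 differed by -0.005 (interval -0.42 to 0.41), with a sign that changed with the setting. Bmpr1a and Bmpr1b were each 0.41 lower in 8F (adjusted p = 0.19 and 0.156; intervals -0.79 to -0.03 and -0.76 to -0.06), without overlap, as held in this direction for 19.8% of genes. Bmp5 was 1.02 higher (adjusted p = 0.338), Tgfbr1 0.09 higher (interval -0.32 to 0.49), Bmpr2 0.21 lower (interval -0.62 to 0.19) and Acvr1 0.41 lower (interval -1.76 to 0.95), or 0.16 higher without replicate 3 of 4F. The median difference was -0.005 over the 9 genes and 0.06 over all genes tested. The 4F values are written with at most 9 decimals and the 8F values with up to 17, so a difference in how the 2 sets were made cannot be told apart from the factors.

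The 4 factors common to both cell types were counted from gene and transgene together. At day 21, 0 of them were called higher and 2 lower in 8F than in 4F (3.95% and 4.41% of all genes tested). Their relation to the Bmp15 values was not tested. Figla was 741, 726 and 816 TPM in 4F at day 21 and 320 and 326 TPM in 8F (log2 difference -1.23, adjusted p = 0.00435), and Lhx8 was 444, 417 and 438 TPM against 185 and 188 TPM (-1.21, adjusted p = 0.00242). Nobox was 1102, 1196 and 1255 TPM against 1009 and 1052 TPM (-0.20, adjusted p = 0.338), and Tbpl2 was 212, 261 and 165 TPM against 121 and 124 TPM (-0.77, adjusted p = 0.0583). Of the added factors, Stat3 differed by 0.03, Sub1 by 0.05 and Dynll1 by 0.57 between 8F and 4F at day 21 (adjusted p = 0.898, 0.889 and 0.13), and Sohlh1 by 1.28 (adjusted p = 0.0201). Sohlh1 was listed at 0 at day 7, and was 60.9, 42.7 and 56.2 TPM in 4F at day 21 and 117 and 143 TPM in 8F.

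8F at day 21 was also set against the same day 7 libraries of 4F, so these values share their controls with the first comparison. Of the 9 genes, 4 were higher and 1 lower, against 37.2% of all genes tested (24.2% higher, 13% lower). The groups did not overlap for 8 of the 9, 6 higher and 2 lower, against 72.3% of all genes (43.9% higher, 28.4% lower). The log2 differences, beside those of 4F, were 4.47 and 4.23 for Gdf9, 3.95 and 3.36 for Bmp15, 3.41 and 3.41 for Bmp6, 2.30 and 1.28 for Bmp5 and -1.08 and -0.67 for Bmpr1a. Adjusted p in 8F was 0.00013 for Gdf9, 6.27e-05 for Bmp15, 0.000139 for Bmp6, 0.00417 for Bmpr1a and 0.023 for Bmp5, which missed the threshold on leaving out any 1 of the 4 libraries compared (0.0753 to 0.14). Bmpr1b was 0.28 (adjusted p = 0.211) and turned negative under the 3 other scalings, Tgfbr1 was 0.49 (adjusted p = 0.0825), Bmpr2 was -0.09 and Acvr1 was 0.06.

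**Figure D3:**
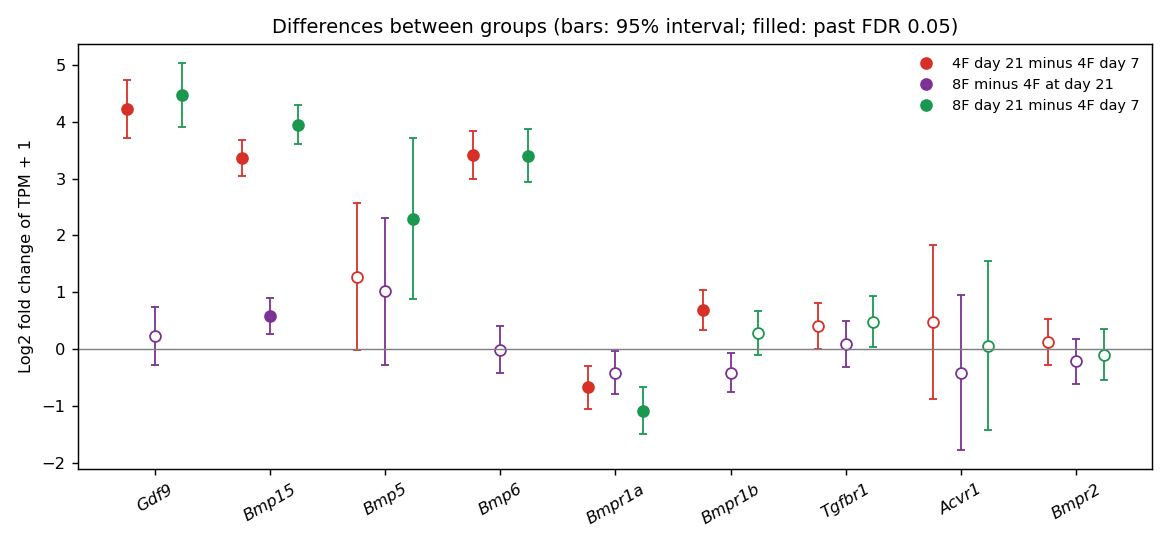
Log2 differences of TPM + 1 for the 9 genes tested in the 3 comparisons, with 95% intervals; filled points passed an FDR of 0.05. The day 21 differences of Gdf9, Bmp15 and Bmp6 lie between 3.36 and 4.47, and of the 8F minus 4F points only that of Bmp15, at 0.59, is filled.

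Ratios of 2 genes within a library do not depend on how that library was scaled. Gdf9 to Bmp15 was 8.35 and 9.58 at day 7, 17.1, 13.9 and 16.9 in 4F at day 21 and 11.8 and 13.0 in 8F. The 3 groups did not overlap, with 8F between the other two. The mean log2 ratio was 0.83 higher in 4F at day 21 than at day 7 and 0.35 lower in 8F than in 4F, each with p = 0.2 by a two-sided exact permutation test over libraries, the smallest p that 2 against 3 libraries allow. Bmp6 to Bmp15 was 0.605 and 0.625 at day 7 and 0.719, 0.656 and 0.581 in 4F at day 21, which overlap, and 0.391 and 0.473 in 8F, below both.

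Bmpr1b to Bmpr1a was 1.01 and 1.32 at day 7, 3.10, 2.85 and 3.08 in 4F at day 21 and 3.39 and 2.70 in 8F. The 2 receptors were thus near parity at day 7, and Bmpr1b stood about 3 to 1 at day 21 in 4F (3.01 ± 0.138, n = 3) and in 8F (3.05 ± 0.486, n = 2). The mean log2 ratio was 1.38 higher in 4F at day 21 than at day 7 (exact permutation p = 0.2, again the smallest possible) and differed by 0.008 between 8F and 4F, which overlapped. Summed over the 4 type I receptors the level was 174 and 176 TPM at day 7, 200 to 225 TPM in 4F at day 21 and 175 and 163 TPM in 8F, and Bmpr1b made up 40.03% and 45.8%, 53.1% to 61.0%, and 56.4% and 52.0% of it. Of the summed TPM of the 5 ligands, Gdf9 made up 83.5% and 84.8% at day 7, 89.2% to 91.4% in 4F at day 21 and 89.3% and 89.8% in 8F.

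**Figure D4:**
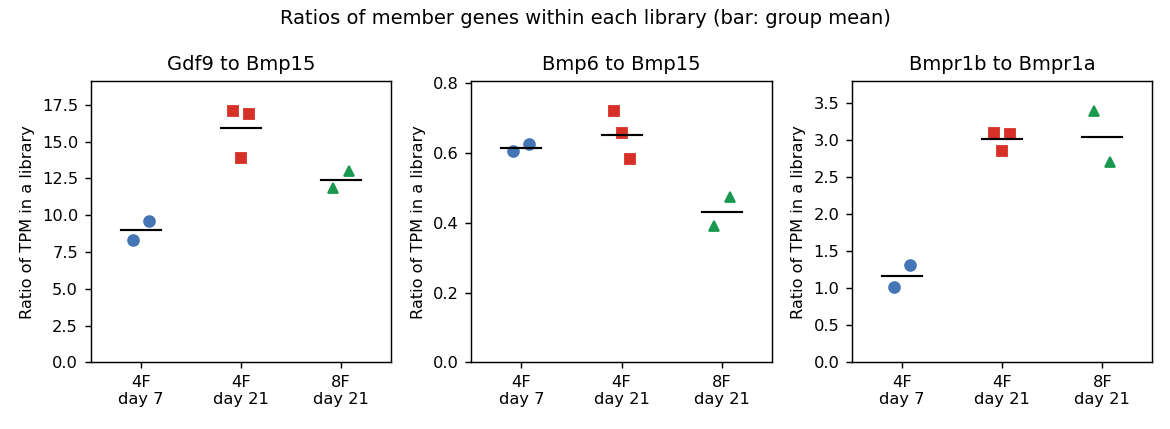
Ratios of the TPM of 2 genes within each library, by group; points are libraries and black lines group means. Gdf9 to Bmp15 is highest in 4F at day 21 (13.9 to 17.1), Bmp6 to Bmp15 is lowest in 8F (0.391 and 0.473), and Bmpr1b to Bmpr1a is near 3 in both groups of day 21.

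Across the 7 libraries, the genes whose log2(TPM + 1) was most like that of Gdf9, among the 10571 tested genes averaging 10 TPM or more, were Parp12 (Pearson r = 0.9994), Pcgf6, Cry1, Peak1 and Pik3r4 (0.9987). For Bmp15 they were Prdx2 (r = 0.999), Polr2b, Me1, Wee2 and Gm15681 (0.9985). Me1 went from 16.2 TPM at day 7 to 190 TPM in 4F and 280 TPM in 8F at day 21, and Wee2, an oocyte kinase that holds the meiotic arrest, from 49.7 to 319 and 395 TPM. The libraries fall into a day 7 and a day 21 set, and r is given as a description only.

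The remaining genes of the pathway were 97, of which 61 were tested. In 4F from day 7 to day 21, 21 of the 61 rose and 15 fell, with a median log2 difference of 0.30. Between 8F and 4F, 6 were higher and 1 lower, with a median of 0.07. Between 8F at day 21 and 4F at day 7, 23 were higher and 11 lower. These shares are read against the 40.6%, 8.37% and 37.2% of all genes given above.

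Of 28 other ligands, 9 were tested, and 3 rose and 1 fell with the day in 4F. Tgfb2, which signals through TGFBR1 and TGFBR2, had the highest mean of them at 2.90 and 13.7 TPM at day 7, 117, 97.3 and 129 TPM in 4F at day 21 and 83.5 and 71.6 TPM in 8F (log2 difference with the day in 4F 3.92, adjusted p = 0.00141). Tgfb3 rose by 1.18 with the day in 4F, from 9.60 and 12.1 TPM to 29.0, 21.3 and 27.3 TPM, but limma-voom gave 0.69 (adjusted p = 0.0864; range 0.00294 to 0.0864). It was 54.4 and 52.6 TPM in 8F (1.03 above 4F, adjusted p = 0.0285; missed on leaving out any 1 of the 5 libraries, 0.0538 to 0.225; range 0.00515 to 0.225). Bmp7 rose by 2.78 and Gdf11 fell by 1.40 on the log2 scale. The Bmp7 call was missed without replicate 1 of day 7 (1.97, adjusted p = 0.0508; range 0.0069 to 0.0508). Inhbe, an activin subunit gene, was 8.52 and 9.38 TPM in 8F against 0.538 to 1.52 TPM in 4F at day 21 and 0 at day 7. Its 8F minus 4F difference was 2.33 (limma, adjusted p = 0.0182). The threshold was missed with the replicate block (2.15, adjusted p = 0.101) and with a pseudocount of 0.1 (3.12, adjusted p = 0.0564). It was also missed without replicate 1 or 2 of 8F, where the difference was 2.39 and 2.27. The inhibin alpha gene Inha and Nog, the BMP antagonist, were at 0 in every library.

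Among 7 other receptors, 5 were tested. Acvr1b (ALK4), the activin type I receptor and the most abundant of them, was 26.4 and 31.5 TPM at day 7, 49.2, 41.8 and 50.8 TPM in 4F at day 21 and 71.2 and 78.5 TPM in 8F. It was called higher in 4F at day 21 than at day 7 (0.69, adjusted p = 0.011) and in 8F than in 4F (0.66, adjusted p = 0.0469), but in only 12 and 8 of the 17 other settings. The rise with the day depended on the scaling. It was 0.35 after median-of-ratios rescaling (adjusted p = 0.11), 0.29 after quantile normalization (0.198) and 0.15 with limma-voom (0.539). The day call was also missed with the replicate block (0.64, adjusted p = 0.0603) and without replicate 1 of day 7 (0.57). The 8F call was missed on leaving out any 1 of the 5 libraries (adjusted p 0.0778 to 0.0959 without a 4F library). Acvr2a, an activin type II receptor, fell by 0.87. Tgfbr2, the type II receptor of TGF-beta itself, was 1.59 and 1.15 TPM at day 7 and at most 0.0432 TPM in the day 21 libraries, so the Tgfb2 transcripts were high where those of this receptor were close to 0. Of 4 co-receptors tested, 0 rose and 2 fell in 4F: Rgma, a BMP co-receptor, from 17.6 and 12.7 TPM to between 0.0415 and 0.473 TPM, and Rgmb by 1.14 on the log2 scale. Acvr2a passed the test in 10 of the 17 other settings (adjusted p 0.00106 to 0.0886) and Rgmb in 13 (0.000708 to 0.0875). Both were missed without either replicate of day 7 or without replicate 2 of 4F at day 21, Rgmb also without replicate 1 of 4F at day 21, and Acvr2a also without either 8F library, with the replicate block and with only the groups compared. Tgfbr3 (betaglycan), the most abundant co-receptor, was 25.8 to 53.7 TPM over the 7 libraries, with overlapping groups.

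All 8 SMAD genes were tested. In 4F with the day, 3 rose and 1 fell. Smad3 was 36.6 and 38.1 TPM at day 7, 88.4, 80.7 and 86.8 TPM in 4F at day 21 and 134 and 138 TPM in 8F. It rose by 1.17 with the day (adjusted p = 0.000311) and was 0.66 higher in 8F than in 4F (adjusted p = 0.0155), the latter missed without either 8F library (adjusted p 0.0981 and 0.0984; range 0.00127 to 0.101). Smad2 rose by 1.16 and Smad1 by 1.74, the last from 2.93 and 2.45 TPM to 11.6, 13.6 and 9.18 TPM. Smad5, at 20.9 to 37.8 TPM, and Smad4, at 60.8 to 94.6 TPM, were called in none of the 3 comparisons. Smad6, an inhibitory SMAD that BMP signals induce, was the one that fell, from 3.98 and 2.87 TPM to at most 0.133 TPM in 4F.

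All 14 intracellular regulators were tested, and in 4F with the day 8 rose and 2 fell, with a median of 0.69. Among all genes tested, 25.3% were higher and 15.3% lower. Ski, a repressor of SMAD2 and SMAD3, was the most abundant at 137 and 140 TPM at day 7, 513, 477 and 473 TPM in 4F at day 21 and 429 and 450 TPM in 8F (1.81 with the day in 4F, adjusted p = 6.07e-05). Its relative Skil fell by 2.37, a call missed without replicate 1 of day 7 (adjusted p = 0.0619, the highest of its settings). Smurf1, a ubiquitin ligase for SMADs and receptors, went from 8.69 and 9.82 TPM to between 41.1 and 57.2 TPM at day 21. Ppp1r15a, a phosphatase subunit that can dephosphorylate type I receptors, rose by 1.41. Ski, Smurf1 and Ppp1r15a passed the test in each of the 17 other settings. Of the 14, 1 was called between 8F and 4F, Tgif1, which was lower by 1.13 in 8F (adjusted p = 0.0483) and passed in 2 of 17 other settings.

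Of 9 proprotein convertases and latency proteins tested, 4 rose and 1 fell in 4F with the day. Furin, the protease that cleaves TGF-beta family precursors, was 23.0 and 39.5 TPM at day 7, 119, 99.5 and 101 TPM in 4F at day 21 and 120 and 140 TPM in 8F (1.78 with the day in 4F, adjusted p = 0.00141). Tll1 rose by 2.62, Ltbp2 by 1.89 and Pcsk6 by 2.37, the last missed in 11 of 17 other settings (adjusted p 0.0067 to 0.0951) and at 1.22 without replicate 2 of day 7. Of 6 secreted antagonists tested, 2 rose and 1 fell; Dand5 rose by 2.33 and Fstl3, which binds activin and GDF ligands, by 1.70. Dand5 passed in 10 of the 17 other settings (adjusted p 0.0116 to 0.157). It was missed with the replicate block, with limma-voom, with only the groups compared, without replicate 1 of day 7 (1.70), without replicate 1 of 4F at day 21 and without either 8F library. Fstl3 was missed with limma-voom (1.33, adjusted p = 0.052, the highest of its settings).

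Genes known to respond to BMP and TGF-beta signals mostly fell in 4F with the day. Of 10 tested, 0 rose and 7 fell, against 25.3% higher and 15.3% lower among all genes tested. Their median was -1.84 against 0.17 over all genes. It stayed at -1.84 with the 2 genes at 0 throughout 4F at day 21 set to 3 reads a library. In 8F at day 21 against 4F at day 7, 3 of the 10 were higher and 5 lower (24.2% and 13% of all genes). The list shares Smad6, Smad7, Skil and Bambi with the lists above. Ccn2, a TGF-beta and YAP target, was 9.22 and 11.4 TPM at day 7 and 0 in the 3 libraries of 4F at day 21. Id4 was 28.8 and 29.0 TPM and then 6.65, 5.60 and 8.00 TPM, and Id2 fell by 1.72 (adjusted p = 0.00629; 0.0656 without replicate 1 of day 7, the highest of its settings). Id1, the inhibitor of differentiation that BMP signals induce in many cells, was 176 and 231 TPM at day 7, 54.6, 70.4 and 107 TPM in 4F at day 21, and 664 and 519 TPM in 8F. It fell by 1.43 with the day in 4F (adjusted p = 0.0084) and was 2.96 higher in 8F than in 4F (SE 0.29, adjusted p = 0.00508). The 8F value was the highest of the 3 groups, above day 7 by 1.54 (adjusted p = 0.0104), a call missed without replicate 1 of day 7 (0.0799) and without replicate 1 or 2 of 8F (0.0974 and 0.0585; range 0.0047 to 0.0974). The 8F minus 4F difference of Id1 passed the test in 16 of 17 other settings and missed it without replicate 1 of 8F (2.79, adjusted p = 0.0689; range 0.00054 to 0.0689).

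Id3 was 40.1 and 21.7 TPM at day 7, 34.4, 17.9 and 49.8 TPM in 4F at day 21 and 126 and 141 TPM in 8F. Both 8F libraries stood above the other 5, and the difference from 4F at day 21 was 2.05 (adjusted p = 0.0387; missed in 10 of 17 other settings, 0.004 to 0.281). Of the 10 targets tested, 2 were higher in 8F than in 4F and 0 lower, with a median of 0.43. Of the 10 ligand and receptor genes of the opening, 9 were tested in the same contrast, and Bmp15 alone was called higher. That call passed in 6 of 17 other settings. Whether the target genes and Bmp15 are related was not tested.

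**Figure D5:**
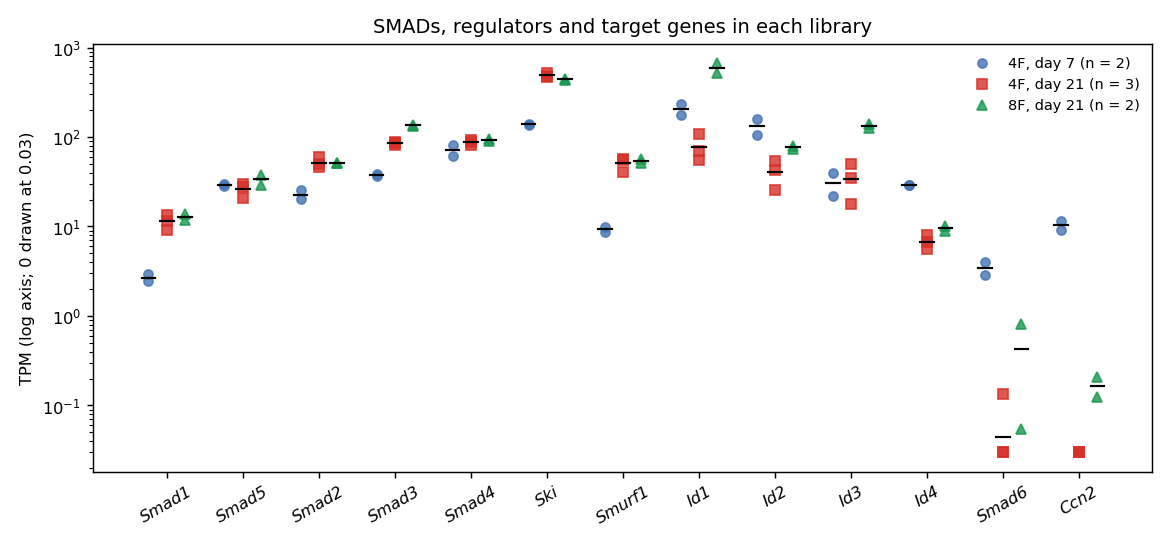
Level of SMAD genes, 2 regulators and target genes in TPM on a log axis; each point is a library and each black line a group mean, and values of 0 are drawn at 0.03. Smad3 and Ski lie higher at day 21 than at day 7, Id4 and Ccn2 lower, and Id1 and Id3 are highest in 8F (664 and 519 TPM, and 126 and 141 TPM).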

How the data were processed

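RNA of mini-oocytes was sequenced in 7 libraries, grouped by their labels. The authors trimmed reads (Trim Galore), aligned them to mm10 (HISAT2), removed rRNA reads (bedtools), kept unique reads, counted them with featureCounts on GENCODE vM25, giving each overlapping gene a fraction, and deposited TPM. Fractions and the lack of a stated strand setting blur genes that share exon bases. Libraries came from 2 NovaSeq models with different read lengths, and which is not given in the sources used here. The authors' counts for edgeR were not used here.

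The test was limma (version 3.58.1, R 4.3.3; lmFit, then eBayes using a trend) of log2(TPM + 1) (7 libraries, 3 groups; at least 1 TPM in at least 2 libraries; two-sided; Benjamini-Hochberg), after tests on simulated data. A fold change on this scale understates that of low genes. Reads were recovered with exon lengths of GENCODE vM21, whose identifiers matched 98.1% of genes. Between 80.4% and 85.0% of low values were whole reads within 0.01, and 98.9% to 99.7% multiples of a sixth. Replicates differed beyond sampling noise. Other settings were pseudocounts of 0.1 and 5, no filter or 5 TPM, 3 scalings, eBayes without a trend, only the groups compared, the replicate number as a block, and leaving out each library. These 17 settings are not independent checks. The block gave the same differences as leaving out replicate 3 of 4F at day 21, the only library with that number. Leaving out a library of the group not compared left a difference unchanged and altered only its p-value. From each pathway list the text names up to 4 called genes without overlap and with a mean of 5 TPM or more, by size of change, and the gene with the highest mean; Smad4, Smad5, Smad6, Tgfbr2, Inha, Nog, the markers and the factors were added after their values were seen. Members and lists were chosen with earlier results of these data known. Promoters and their coordinates are from RefSeq (GRCm38.p6).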

Additional observations from a re-analysis of the deposited data

How the results depend on the processing

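The 5 calls among the 10 genes in the day comparison of 4F became 4 under median-of-ratios and quantile scaling and with the replicate block, and 3 without replicate 1 of day 7 (3 to 6 on leaving out a library; a library left alone in its group was assumed to vary like the other groups). For 8F minus 4F, the 1 call became 0 with a pseudocount of 0.1, without a filter, under median-of-ratios and quantile scaling, without a trend and with the replicate block, 2 with limma-voom, and between 0 and 1 on leaving out a library. The sign of a difference changed in these cases, none past the threshold except Bmpr2 with limma-voom. For 4F at day 21 minus day 7, Bmpr2 was -0.21, -0.21 and -0.41 under the 3 scalings (median-of-ratios, quantile, limma-voom), Tgfbr1 was -0.12 with limma-voom, and Acvr1 was -0.091 with the block, -0.0385 with limma-voom and -0.091 to 0.83 on leaving out a library. For 8F minus 4F, Bmp6 was 0.0104, 0.0597 and 0.14 under the 3 scalings and -0.13 to 0.12 on leaving out a library, Acvr1 was 0.16 with the block and -0.76 to 0.16 on leaving out a library, and Tgfbr1 was -0.0338 to 0.20. For 8F at day 21 minus 4F at day 7, Bmpr1b was -0.044, -0.27 and -0.11 under the 3 scalings, and Acvr1 was -0.22 with median-of-ratios, -0.30 with limma-voom and -0.0456 to 0.18 on leaving out a library. The cause was not tested.

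Replicate numbers did not pair the libraries, since same-numbered libraries had correlations of their deviations between -0.037 and 0.011. With the replicate block, 164 genes were called between 8F and 4F, against 1822 without it, 994 without a trend, and 306 and 357 without 1 of the 8F libraries. Without 1 of the 4F libraries of day 21 the calls were 924 to 1021, and without 1 of the 8F libraries those of 8F minus day 7 were 4089 and 4215, against 8103. The share of calls that were higher was 47.3% between 8F and 4F and 62.8% with limma-voom, and 65.1% between 8F at day 21 and day 7, against 51.4%, 51.1% and 47.3% under the 3 scalings. The pathway genes called numbered 36, 7 and 34 in the 3 comparisons and ranged over 28 to 37, 0 to 7 and 19 to 35; of 408 counts for single lists, 335 stayed within 1.5 times. Bmp4, and Bmp5 at day 7, rest on few reads, and the small groups leave wide intervals, widest for Acvr1.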
